A study of Arabidopsis thaliana with 18 samples.

Results

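Root tips of 2 Arabidopsis thaliana mutants were compared in the absence of added peptide: 3 arrays labelled puchi-2 against 3 arrays labelled rlk7-3, all from the control treatment. These are 6 of the 18 arrays of the series. They were read at 16722 of the 38408 probe sets, those that the platform annotation ties to exactly 1 gene, which name 16550 different genes. The comparison asks which transcripts separate the mutants from each other, and whether wild type then sides with rlk7-3, with puchi-2 or with neither. The arrays were chosen by their labels and the probe sets by their annotation, not by a measured value.

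Each array was hybridised with RNA pooled from about 80 root tips of 1 cm, cut from seedlings 5 days old. The puchi-2 control, rlk7-3 control and wild-type control seedlings were on medium without peptide, and the matching puchi-2, rlk7-3 and wild-type TOLS2 groups received 1 µM of the peptide TOLS2 for 3 h. Each of these 6 groups has 3 arrays, which the labels call biological replicates. The labels give a background only for wild type, whose sample descriptions begin with Col, and they state neither the lesion nor the number of independent lines of either mutant, so each genotype is used here as a single line under its label. In pooled root tips, fewer cells of a type and less RNA per cell cannot be told apart.

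TOLS2 is a small peptide secreted in the root, and RLK7 is the leucine-rich repeat receptor kinase that perceives it. In the Arabidopsis root this pair limits how closely lateral root founder cells are placed along the primary root. PUCHI, of the AP2/ERF family of transcription factors, shapes the early divisions of the lateral root primordium and lies downstream of the peptide and its receptor. The mutants are thus named for a receptor at the top and a transcription factor further down the same route, and the control arrays show them without added peptide.

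PUCHI (AT5G18560) had a log2 level of 5.04, 5.45 and 5.44 on the puchi-2 arrays, against 4.39, 4.21 and 4.22 on the rlk7-3 arrays, and it was 4.68, 4.15 and 4.84 in wild type. All puchi-2 arrays lay above all rlk7-3 and all wild-type arrays, while the wild-type range contained the rlk7-3 values. The difference between the mutants was 1.04 on the log2 scale (SE 0.15, 95% interval 0.71 to 1.36, n = 3 each), a 2.05-fold higher signal on the puchi-2 arrays, with a limma adjusted p of 0.0278. Against wild type, the PUCHI difference was 0.75 for puchi-2 (limma adjusted p = 0.23) and -0.28 for rlk7-3 (0.726), and neither passed the test. The signal of the gene named in the puchi-2 label was thus not lower on the puchi-2 control arrays. Neither the lesion nor the stretch of transcript that the probes read is given in the sources used here, so the label puchi-2 is not tested by its own gene. RLK7 (AT1G09970) had 0 probe sets with 1 gene, so the rlk7-3 label was not checked either, and both mutants are called by their labels.

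The control arrays of the mutants were close to each other. Pearson correlations over the 16722 probe sets ran from 0.9934 to 0.9953 for the 9 pairs of a puchi-2 and an rlk7-3 array, and from 0.9942 to 0.9953 for the 6 pairs within a mutant, given as a description of arrays that share a normalization. Array medians of the 9 control arrays lay between 5.97 and 6.04. The first 3 principal components of those arrays held 18.2%, 15.7% and 13.5% of the variance. On the first, puchi-2 replicate 2 stood apart from its group: it scored -13.1, among the wild-type arrays (-13.8 to -8.16), while puchi-2 replicates 1 and 3 scored 9.44 and 5.58, near the rlk7-3 arrays (7.19 to 12.04). On the second, replicate 1 of wild type and of rlk7-3 scored 14.2 and 16.0, and their replicates 2 and 3 scored -15.2 to -0.83. The puchi-2 arrays scored -6.08 to 1.95 there. On the third, the puchi-2 arrays scored 7.62 to 16.3 and the other control arrays -8.69 to -2.63. Photosynthesis transcripts, used as markers of shoot tissue, gave means over 7 genes of 6.20, 6.13 and 6.28 on the puchi-2 arrays, 6.11, 6.35 and 6.55 on the rlk7-3 arrays and 6.38, 6.51 and 6.74 in wild type. None of the 7 differed by the test between the mutants; their part in other results was not tested. The root-hair expansins EXPA7 and EXPA18, 2 markers of root-hair cells, averaged 9.85, 9.99 and 9.83 on the puchi-2 arrays, against 9.95, 9.94 and 9.93 on the rlk7-3 arrays. The levels of these transcripts of root epidermis overlapped between the mutants. BBM and CR4, used as markers of the stem cell niche, differed by 0.02 and -0.17 and were not called. Marker lists for root cap, endodermis, xylem and phloem had no member analysed here.

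Across all tested genes the mutants differed by little. The median difference, puchi-2 minus rlk7-3, was 0.01 on the log2 scale, with the 1st and 99th percentiles at -0.39 and 0.49, and 98.8% of probe sets lay within 0.5 of 0. limma called 7 probe sets at an adjusted p below 0.05, which is 0.0419% of those tested; 4 were higher on the puchi-2 arrays (0.0239%) and 3 were lower (0.0179%). At an unadjusted p below 0.05 there were 850 (5.08%). The 3 arrays of each mutant did not overlap at 1814 probe sets (10.8%). Without any difference, a share of about 0.05 of probe sets would reach that unadjusted p and about 0.1 would not overlap. Neither count is therefore read as a number of probe sets that differ. A difference of at least 1 was reached by 7 probe sets in each direction (0.0419% each). The median SE of a difference was 0.126, and the median 95% interval reached 0.269 to either side. That interval is not adjusted for the number of tests, and a call asked for more. The weakest call, AT2G18150, had a difference of -0.73 (SE 0.12) and an unadjusted limma p of 2.09e-05. With 3 arrays a group, differences below 0.269 were mostly not detectable, and differences well above it could be missed.

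The call set depended on single arrays. It held 3, 4 and 2 probe sets without puchi-2 replicates 1, 2 and 3, and 2, 4 and 1 without rlk7-3 replicates 1, 2 and 3. QQS was called each time. AT5G52070 was called in 5 of these 6 fits and lost only without rlk7-3 replicate 3 (limma adjusted p = 0.105). PUCHI was called in 1, without puchi-2 replicate 1 (0.0265), and had adjusted p-values of 0.11 to 0.175 in the others. AT1G36150, AT3G06435, AT5G13600 and AT2G18150 were called in 0 of the 6, with the lowest adjusted p of each between 0.0538 and 0.0854 and the highest between 0.161 and 0.321.

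QQS (AT3G30720), an orphan gene of Arabidopsis that affects starch content, had the largest difference of all tested probe sets. It stood at 6.88, 7.39 and 7.05 on the puchi-2 arrays, against 4.27, 4.14 and 3.87 on the rlk7-3 arrays and 4.04, 4.13 and 4.57 in wild type. Every puchi-2 array was more than 2 log2 units above every array of the other genotypes, whose ranges overlapped each other. The difference between the mutants was 3.01 (SE 0.20, 95% interval 2.59 to 3.43), or 8.07-fold, with a limma adjusted p of 3.3e-06. QQS was 2.86 higher on the puchi-2 arrays than in wild type (6.88e-06) and differed by -0.16 between rlk7-3 and wild type (0.913). The 10 nearest measured genes along the chromosome differed by -0.23 to 0.57 between the mutants. Of them 0 were called (lowest limma adjusted p = 0.686), where 0.0419% of all probe sets were.

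AT5G52070 was lower on the puchi-2 arrays, at 6.41, 6.24 and 6.48, against 6.94, 7.09 and 7.16 on the rlk7-3 arrays and 6.17, 6.22 and 6.13 in wild type. All puchi-2 arrays were below all rlk7-3 arrays and above all wild-type arrays, so wild type lay outside both mutants on the puchi-2 side. The difference was -0.69 (SE 0.09, limma adjusted p = 0.0094). Set against wild type, the rlk7-3 arrays were 0.89 higher (0.000688) and the puchi-2 arrays 0.20 higher (0.787).

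AT3G06435 had the same arrangement of genotypes. It read 6.04, 5.93 and 5.89 on the puchi-2 arrays, 6.62, 6.57 and 6.56 on the rlk7-3 arrays and 5.71, 5.66 and 5.59 in wild type. The mutants differed by -0.63 (SE 0.10, limma adjusted p = 0.0472). The rlk7-3 arrays were 0.93 above wild type (0.000688), whereas the 0.31 of the puchi-2 arrays did not pass (0.621).

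AT1G36150 stood at 4.34, 4.46 and 4.47 on the puchi-2 arrays, against 3.82, 3.84 and 3.89 on the rlk7-3 arrays and 4.18, 4.24 and 4.45 in wild type. Here the wild-type arrays overlapped the puchi-2 arrays and lay above all rlk7-3 arrays. The difference between the mutants was 0.58 (SE 0.09, limma adjusted p = 0.0278), and the -0.44 of rlk7-3 against wild type was not called (0.114).

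AT5G13600, a dim probe set, read 3.72, 3.98 and 3.63 on the puchi-2 arrays, against 3.22, 3.19 and 3.07 on the rlk7-3 arrays and 3.27, 3.25 and 3.25 in wild type. Wild type fell between the mutants without overlapping either. The difference of 0.61 (SE 0.10) had a limma adjusted p of 0.0499. Neither mutant differed from wild type by the test, with 0.52 for puchi-2 (0.23) and -0.09 for rlk7-3 (0.886).

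AT2G18150, a class III peroxidase, a family of secreted enzymes that use hydrogen peroxide on cell-wall phenolics, was lower on the puchi-2 arrays. Its levels were 5.60, 5.46 and 5.80 there, against 6.39, 6.24 and 6.43 on the rlk7-3 arrays and 5.96, 6.38 and 6.09 in wild type. All puchi-2 arrays were below all others, and wild type overlapped rlk7-3. The difference between the mutants was -0.73 (SE 0.12, limma adjusted p = 0.0499). The difference of puchi-2 from wild type, -0.52, did not pass (0.428).

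**Figure D1:**
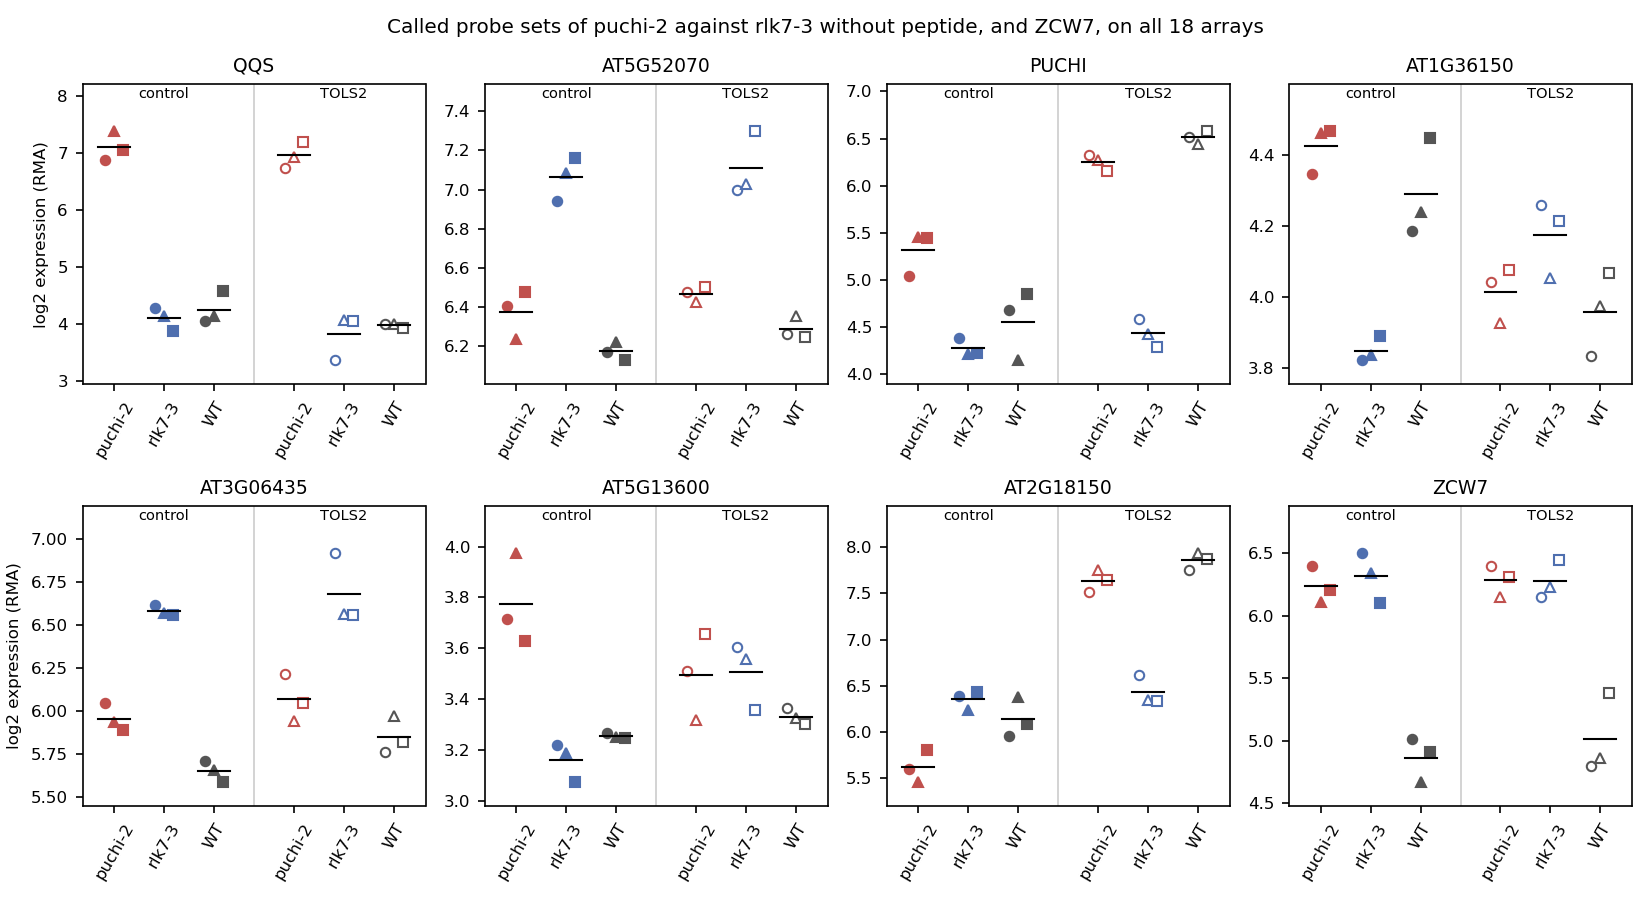
Log2 expression of the 7 called probe sets and of ZCW7 on all 18 arrays, with puchi-2 left of rlk7-3 and wild type (WT); filled points are control arrays, open points TOLS2 arrays, marker shapes replicates 1 (circle), 2 (triangle) and 3 (square), and bars group means. In QQS the puchi-2 arrays stand alone in both treatments, whereas in ZCW7 both mutants stand above wild type; each panel has its own axis, which does not start at 0.

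The wild-type arrays therefore did not side with 1 mutant throughout. Among the 7 called probe sets they overlapped rlk7-3 alone in 3 (QQS, PUCHI and AT2G18150) and puchi-2 alone in 1 (AT1G36150). They lay between the mutants in 1 and outside both in 2. Over all 16722 probe sets, wild type overlapped rlk7-3 alone in 1372, puchi-2 alone in 1737 and both in 12792. It lay between the mutants in 28 and outside both in 793. At most of these probe sets the mutants overlapped, unlike at the 7 called. Among the 850 at an unadjusted limma p below 0.05, wild type overlapped rlk7-3 alone in 208, puchi-2 alone in 250 and both in 352. There it lay between the mutants in 23 and outside both in 17. Since the comparisons with wild type share their wild-type arrays and each mutant's arrays with the comparison between mutants, their values are given side by side and no agreement between them is counted.

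Tested one by one against wild type, puchi-2 had 3 called probe sets (0.0179%), with 2 higher (0.012%) and 1 lower (0.00598%). For rlk7-3 there were 8 (0.0478%), with 4 in each direction (0.0239% each), and 4 higher and 7 lower after centring each array on its median. The mean of both mutants against wild type, a contrast that is uncorrelated with the difference between the mutants in this design, had 9 (0.0538%), with 4 higher (0.0239%) and 5 lower (0.0299%), and 6 and 5 after a renewed quantile normalization. The count for rlk7-3 was 4 without rlk7-3 replicate 1 or 3, and 3, 4 and 3 without wild-type replicates 1, 2 and 3. The count for the mean of both mutants was 5 without puchi-2 replicate 1, and 1, 1 and 3 without wild-type replicates 1, 2 and 3.

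ZCW7 (AT1G59600) was the transcript that most clearly set both mutants apart from wild type. It read 6.40, 6.11 and 6.21 on the puchi-2 arrays and 6.50, 6.34 and 6.10 on the rlk7-3 arrays, against 5.01, 4.67 and 4.91 in wild type. All 6 mutant arrays were above all wild-type arrays, and the mutants overlapped. puchi-2 was 1.38 higher than wild type (SE 0.15, limma adjusted p = 0.00202) and rlk7-3 was 1.45 higher (SE 0.15, 0.000688). The difference between the mutants was -0.07 with a 95% interval of -0.40 to 0.25.

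AT2G23400 was lower in both mutants. Its levels were 7.68, 7.41 and 7.56 on the puchi-2 arrays and 7.73, 7.69 and 7.54 on the rlk7-3 arrays, against 8.34, 8.36 and 8.20 in wild type. All mutant arrays were below all wild-type arrays. Relative to wild type it fell by 0.75 in puchi-2 (limma adjusted p = 0.0102) and by 0.65 in rlk7-3 (0.0284).

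Of the other 7 probe sets called for the mean of both mutants, 3 were also called between the mutants. QQS was 1.35 higher in that mean (limma adjusted p = 0.0063), with the puchi-2 arrays alone above wild type. AT3G06435 and AT5G52070 were 0.62 and 0.54 higher, with the larger part in rlk7-3. AT1G53980 fell by 0.57 in the mean (0.0338), with -0.33 in puchi-2 (0.617) and -0.81 in rlk7-3 (0.00662). CHX16, a cation/proton exchanger, fell by 0.55 (0.0227), with -0.49 in puchi-2 and -0.61 in rlk7-3. AT1G33600 at -0.88 (0.0449) and AT5G66830 at -0.47 (0.0242) completed the 5 lower transcripts, and they differed by 0.06 and 0.02 between the mutants.

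**Figure D2:**
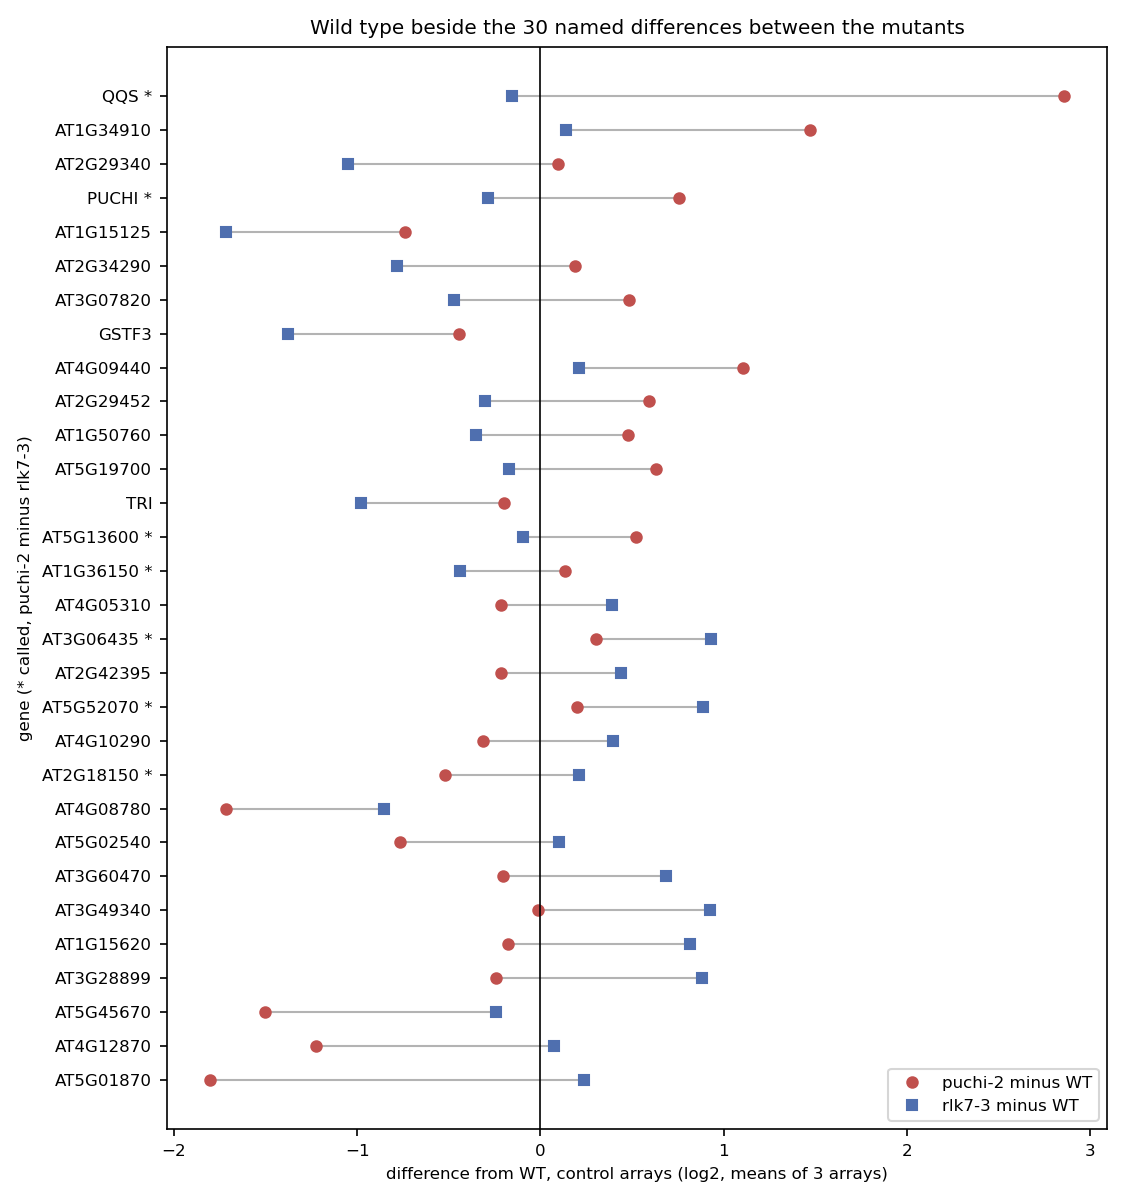
Difference from wild type in control arrays, in log2 units of means of 3 arrays, for puchi-2 (circles) and rlk7-3 (squares) at the 30 named genes; asterisks mark the 7 called between the mutants, and genes run from the most positive to the most negative difference between the mutants. A symbol on the line at 0 equals wild type: QQS has rlk7-3 near 0 and puchi-2 at 2.86, while AT2G29340 has puchi-2 near 0 and rlk7-3 at -1.05.

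Beyond the called genes, 23 further probe sets had the largest differences without overlap between the mutants at an unadjusted p below 0.05, and none passed the adjusted test. The 11 positive ones ran from 0.78 to 1.33 with limma adjusted p-values of 0.227 to 0.974, and the 12 negative ones from -2.04 to -0.61 with 0.158 to 0.974. AT5G01870 had the most negative value: 4.21, 5.92 and 4.31 on the puchi-2 arrays, 6.57, 7.22 and 6.76 on the rlk7-3 arrays and 6.45, 6.56 and 6.84 in wild type. Replicate 2 lay well above the other puchi-2 arrays, and the difference of -2.04 (SE 0.44) had a limma adjusted p of 0.234. AT5G45670 was arranged alike, at 5.04, 5.63 and 4.75 on the puchi-2 arrays, 6.26, 6.85 and 6.11 on the rlk7-3 arrays and 6.23, 6.54 and 7.16 in wild type (difference -1.26, SE 0.30, 0.319). In both genes rlk7-3 overlapped wild type and all puchi-2 arrays were lower.

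AT2G29340 showed the opposite arrangement, with 6.10, 6.53 and 6.07 on the puchi-2 arrays, 5.18, 5.04 and 5.02 on the rlk7-3 arrays and 6.11, 6.12 and 6.16 in wild type. The rlk7-3 arrays stood alone below the other genotypes (difference 1.15, SE 0.24, limma adjusted p = 0.227). Its neighbour TRI (AT2G29330), a tropinone reductase, an enzyme family that reduces ketones, read 7.49, 8.31 and 7.65 on the puchi-2 arrays, 6.76, 7.28 and 7.07 on the rlk7-3 arrays and 7.98, 8.03 and 8.03 in wild type (difference 0.78, SE 0.24, 0.757). GSTF3, a phi-class glutathione S-transferase, which couples glutathione to reactive compounds, was 4.99, 5.18 and 4.42 on the puchi-2 arrays, 4.34, 3.88 and 3.58 on the rlk7-3 arrays and 5.36, 4.79 and 5.78 in wild type (difference 0.93, SE 0.39, 0.974). In these 3 genes all rlk7-3 arrays were the lowest of the 9 control arrays, a description that the adjusted test did not carry.

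Genes of lateral root formation were few on the array with 1-gene probe sets. Of 4 members, PUCHI was higher and the other 3 were not called; the list median was 0.19, beside 0.01 over all probe sets. LBD29, a LOB-domain transcription factor that acts with auxin in lateral root initiation, read 9.07, 8.96 and 8.99 on the puchi-2 arrays, 8.48, 8.56 and 8.47 on the rlk7-3 arrays and 8.68, 8.68 and 8.75 in wild type. Wild type lay between the mutants without overlap, and the difference of 0.50 (SE 0.14) had a limma adjusted p of 0.622. LBD16, a related factor that is needed for the asymmetric founder-cell division, read 7.83, 7.89 and 7.89 on the puchi-2 arrays, 7.96, 8.11 and 7.90 on the rlk7-3 arrays and 8.18, 8.09 and 8.25 in wild type. The puchi-2 arrays were below all others, rlk7-3 overlapped wild type, and the mutants differed by -0.12 (0.999). CR4, a receptor kinase of the same tissue, differed by -0.17.

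Of 64 measured class III peroxidases, 0 were higher, 1 was lower (AT2G18150) and the others were not called, with a list median of 0.02 and a range from -0.87 to 0.60. AT4G08780 held the lower end with 5.54, 6.01 and 5.40 on the puchi-2 arrays, 6.52, 7.0 and 6.03 on the rlk7-3 arrays and 7.45, 7.22 and 7.43 in wild type. The genotypes did not overlap and fell in the order puchi-2, rlk7-3, wild type, yet the difference between the mutants, -0.87 (SE 0.28), had a limma adjusted p of 0.78, and puchi-2 against wild type, -1.72, one of 0.0938. PRX52 stood at 4.74 ± 0.08 on the puchi-2 arrays and 4.72 ± 0.28 on the rlk7-3 arrays (SD, n = 3 each), a difference of 0.01.

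No member of the hormone lists was called. The 14 auxin-response genes had a median difference of 0.14, beside 0.01 over all probe sets. GH3.3, which joins auxin to amino acids, read 6.03, 5.82 and 5.73 on the puchi-2 arrays and 5.41, 5.16 and 5.17 on the rlk7-3 arrays. Its wild-type levels were 5.79, 5.33 and 5.43, and the mutants differed by 0.61 (limma adjusted p = 0.999). The GH3 gene WES1 differed by 0.29 (0.615). The 8 cytokinin genes had a median of 0.12, with ARR15, a response regulator induced by the hormone, at 5.90, 5.49 and 5.79 on the puchi-2 arrays, 5.14, 5.27 and 4.43 on the rlk7-3 arrays and 5.10, 5.21 and 5.55 in wild type (difference 0.78, 0.807). Its wild-type arrays overlapped both mutants. On the TOLS2 arrays the median difference was -0.08 for the auxin-response list and -0.12 for the cytokinin list, beside -0.06 over all probe sets.

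Metabolic and wall lists also had 0 called members. The 24 cytochrome P450 monooxygenases had the highest median of any list with over 5 genes, 0.16, with CYP71B34 at 0.32 (limma adjusted p = 0.302) and CYP71B38 at 0.52 (0.999). The median over all probe sets was 0.01. On the TOLS2 arrays the P450 median was -0.10, and a shift of the list as a whole was not tested. The 70 detoxification genes had a median of 0.00, between -0.42 for UGT73B3 and 0.93 for GSTF3, and the glycosyltransferase UGT84B2 had 4.41, 4.63 and 4.30 on the puchi-2 arrays against 4.09, 3.72 and 3.78 on the rlk7-3 arrays (difference 0.58, 0.227). Among 33 wall-loosening genes (median 0.07), XTH21, a xyloglucan endotransglucosylase/hydrolase that cuts and rejoins wall polymers, read 9.01, 9.0 and 8.99 on the puchi-2 arrays, 8.69, 8.49 and 8.49 on the rlk7-3 arrays and 8.82, 8.78 and 8.71 in wild type. The genotypes did not overlap, and the difference of 0.44 (SE 0.10) had a limma adjusted p of 0.285. The 55 genes of wall synthesis had a median of 0.02, and the endoglucanase GH9B9 reached 0.54 (0.551).

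Small secreted peptides and their receptors, 21 genes, had a median of 0.07, with the CLE peptide genes CLE42 at 0.42 and CLE18 at -0.28 as the ends of the range. The 81 defensin-like genes, which encode small cysteine-rich proteins, had a median of 0.05 and ran from -0.55 for LCR35 to 0.44 for LCR44. Nitrate and sulfate genes (13, median 0.10), immune genes (9, median 0.05), genes of abscisic acid, cold and drought (10, median -0.05) and calcium and touch genes (7, median 0.02) had 0 called members each. In all, 25 lists had at least 1 measured gene, and PUCHI and AT2G18150 were the only called genes on any of them.

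**Figure D3:**
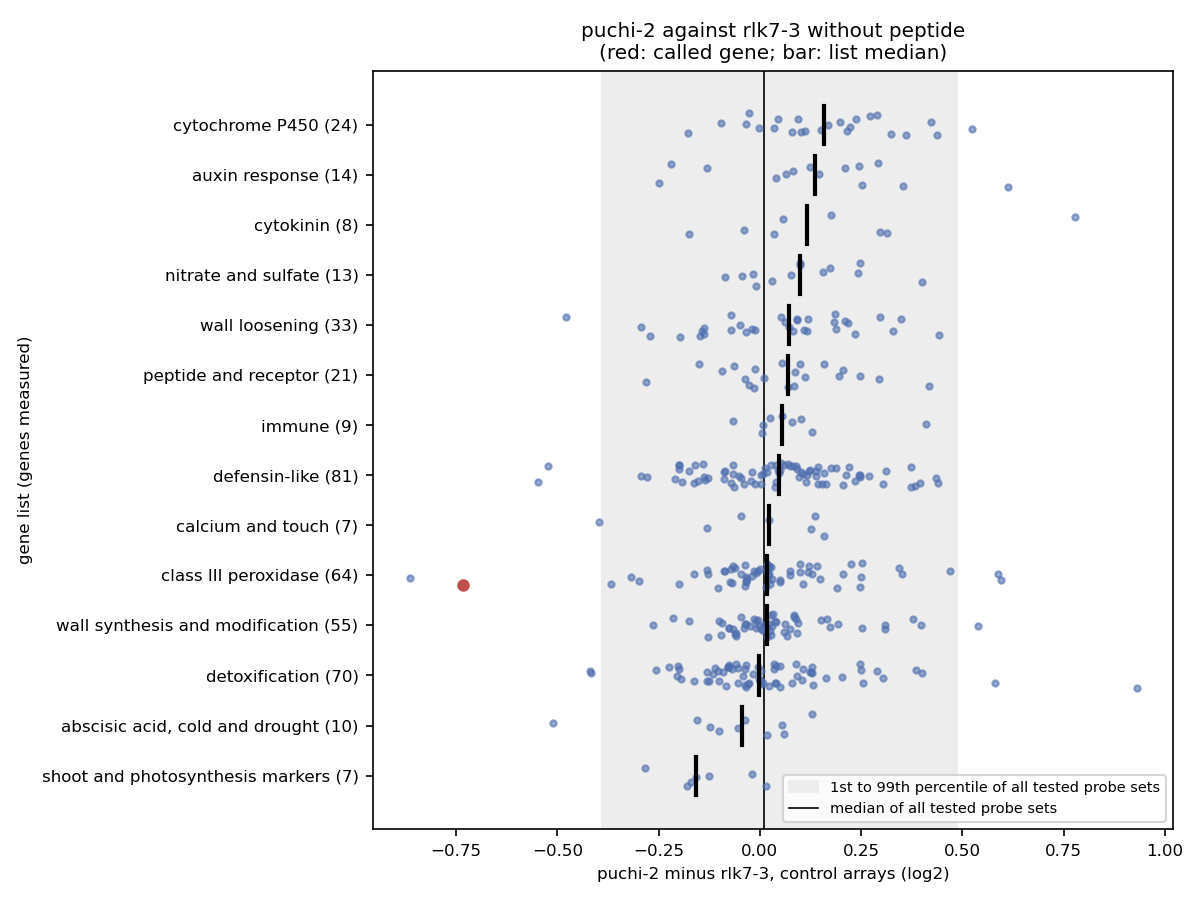
Difference between puchi-2 and rlk7-3 control arrays, in log2 units, for each measured gene (points) of the lists with 7 or more genes; black bars are list medians, the thin line the median of all tested probe sets, the grey band their 1st to 99th percentile, and the red point the called peroxidase AT2G18150. All plotted list medians lie between -0.16 and 0.16.

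The same genotypes were measured again on the 6 arrays with TOLS2, which share no array with the control comparison. Both comparisons come from 1 fit of 18 arrays, so each probe set has the same estimate of spread in both. A low estimate favours a call in both, so calls in the 2 treatments are not independent. With peptide, 444 probe sets were called (2.66%), 203 higher (1.21%) and 241 lower (1.44%) on the puchi-2 arrays. The count was 260 without puchi-2 TOLS2 replicate 2 and 259 without rlk7-3 TOLS2 replicate 3. The split turned with scaling, to 263 higher and 144 lower after a renewed quantile normalization and to 254 and 113 after centring each array on its median. The median of all differences on the TOLS2 arrays was -0.06 as deposited and -0.01 and -0.00136 after those steps. Of the 444, 317 had the same sign on the control arrays and 5 were called there as well. Over all tested probe sets, 54.4% had the same sign in both treatments and 0.0419% were called on control arrays. At an unadjusted limma p below 0.05 on control arrays, 67 of the 444 had the same sign and 12 the opposite one. Of all probe sets, 5.08% reached that p.

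QQS kept its difference on the TOLS2 arrays, with 6.74, 6.94 and 7.21 for puchi-2 against 3.36, 4.06 and 4.05 for rlk7-3 (difference 3.14, SE 0.20, limma adjusted p = 4.68e-07). The differences with and without peptide differed by 0.13 (0.92). AT5G52070 read 6.48, 6.43 and 6.50 for puchi-2 against 7.0, 7.03 and 7.30 for rlk7-3 (-0.64, 0.000812), and AT3G06435 read 6.21, 5.94 and 6.04 against 6.92, 6.57 and 6.56 (-0.61, 0.00294). In these 3 genes the arrays of the mutants did not overlap in either treatment. On control arrays 10.8% of all probe sets did not overlap, and the share on TOLS2 arrays is not given here.

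PUCHI read 6.32, 6.27 and 6.15 on the puchi-2 TOLS2 arrays, against 4.59, 4.43 and 4.28 on the rlk7-3 TOLS2 arrays (difference 1.81, SE 0.15, limma adjusted p = 9.4e-06). The wider gap came with higher puchi-2 values, but the change of the difference, 0.78, was not called (0.224). Wild type read 6.52, 6.45 and 6.58 for PUCHI with TOLS2, above all puchi-2 TOLS2 arrays, a comparison not tested here. AT2G18150 turned round, with 7.51, 7.75 and 7.64 for puchi-2 against 6.62, 6.35 and 6.34 for rlk7-3 (1.20, 5.39e-05). From control to TOLS2 arrays its mean went from 5.62 to 7.64 in puchi-2, from 6.35 to 6.44 in rlk7-3 and from 6.14 to 7.86 in wild type. AT1G36150 read 4.04, 3.93 and 4.08 against 4.26, 4.05 and 4.21 (-0.16, 0.349), and AT5G13600 read 3.51, 3.32 and 3.65 against 3.60, 3.56 and 3.36 (-0.01, 0.969). The arrays of the mutants did not overlap for AT2G18150 and overlapped for AT1G36150 and AT5G13600.

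Of the 7 called probe sets, 4 thus had the same sign and were called again with peptide, 1 was called with the opposite sign and 2 were not called. Having the same sign in 4 of 7 is 57.1%, near the 54.4% of all tested probe sets. The repeated calls rest on the same estimates of spread as the first ones. A test of the change of the difference between treatments called 47 probe sets over the whole table (0.281%), 29 with a positive change (0.173%) and 18 with a negative one (0.108%). This split was 33 and 10 after a renewed quantile normalization and 36 and 10 after centring on the median. Among brighter probe sets it was 30 and 33. Among the 47 were AT2G18150 (1.93, limma adjusted p = 5.78e-05) and AT1G36150 (-0.74, 0.0157). That count was 30 and 31 without puchi-2 control replicates 1 and 3, and 25 and 30 without rlk7-3 control replicates 1 and 2.

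Among the 11 positive differences that missed the test on control arrays, 5 had the same sign with peptide (45.5%, beside 54.4% of all probe sets) and 3 were called there, where 2.66% of all were: AT2G29340 (1.60, limma adjusted p = 0.00199), TRI (1.85, 0.000588) and GSTF3 (2.17, 0.00747). Among the 12 negative ones, 7 had the same sign (58.3%) and 5 were called with it, namely AT5G01870 (-1.94, 0.0279), AT5G45670 (-1.24, 0.0403), AT5G02540 (-1.24, 0.000964), AT3G28899 (-0.94, 0.0457) and AT3G49340 (-0.98, 0.0426). AT3G49340 was a dim probe set, with means of 1.97 on the puchi-2 and 2.91 on the rlk7-3 control arrays. AT5G01870 had 4.56, 4.84 and 4.97 on the puchi-2 TOLS2 arrays, against 6.63, 6.74 and 6.81 on the rlk7-3 TOLS2 arrays, with no overlap. AT4G08780 was called with the opposite sign (3.47, 6.98e-06). All of these calls use the same estimates of spread as the control comparison. AT1G34910, the largest positive difference after QQS on the control arrays at 1.33 (4.04, 3.94 and 4.59 for puchi-2 against 2.92, 2.32 and 3.36 for rlk7-3), was -0.24 with peptide (0.761).

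**Figure D4:**
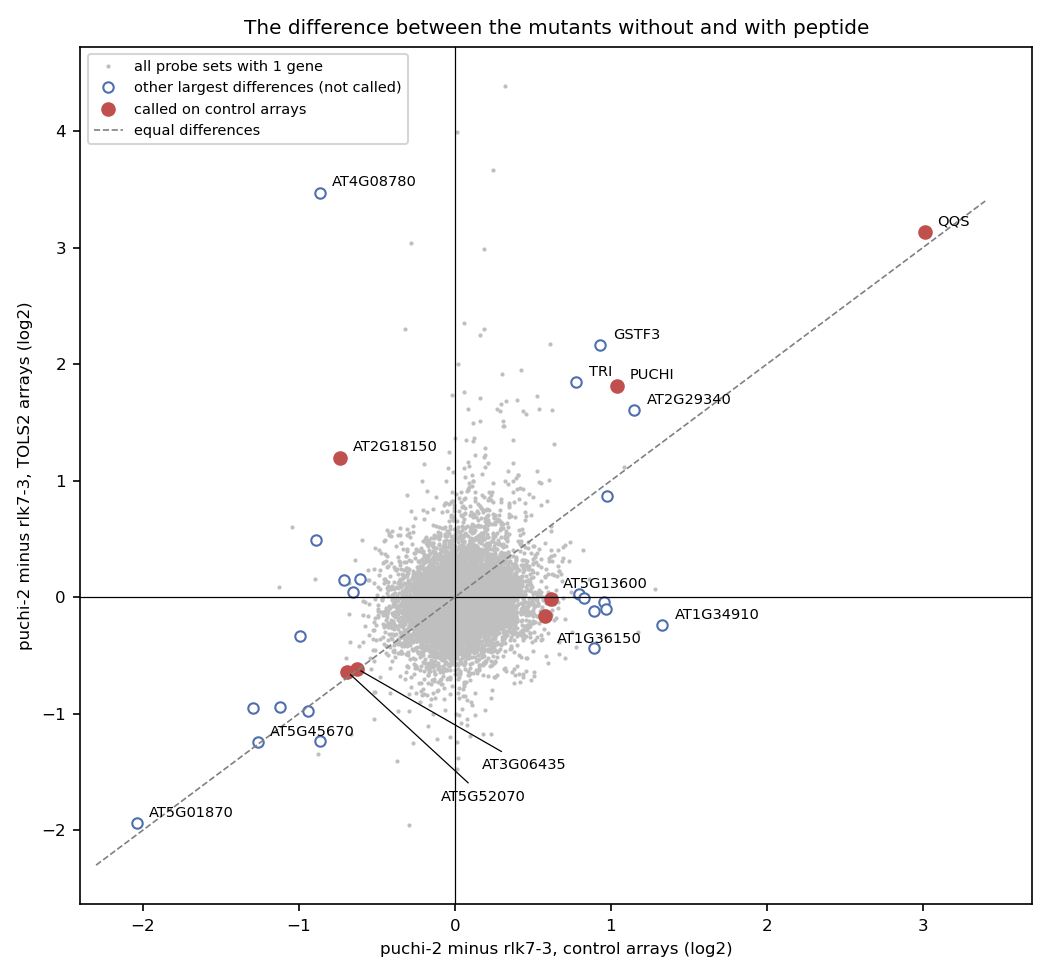
Difference between puchi-2 and rlk7-3 in log2 units on control arrays (horizontal) and on TOLS2 arrays (vertical) for all 16722 probe sets; red points are the 7 called on control arrays, open circles the 23 other named differences, and the dashed line marks equal differences. QQS, AT5G52070, AT3G06435 and AT5G01870 lie near the dashed line, AT1G34910 lies near 0 on the vertical axis, and AT2G18150 and AT4G08780 lie at the upper left.

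Of 64 class III peroxidases, 1 was called without peptide, where 0.0419% of all probe sets were. On the puchi-2 TOLS2 arrays 8 were higher and 2 lower, where 1.21% of all probe sets were higher and 1.44% lower. PRX52 differed by 3.99 there (limma adjusted p = 1.64e-07) beside 0.01 on control arrays, and AT4G36430 by 2.30 (2.91e-06) beside -0.32.

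The genes beside the mutated loci were also read. The 10 measured genes nearest to PUCHI, 5 on each side, differed by -0.33 to 0.18 between the mutants, and the 10 nearest to the RLK7 locus by -0.34 to 0.05, with 0 called in either stretch. No window of 10 neighbouring measured genes held 3 or more called probe sets (0 windows). With 7 calls, 0.0419% of all probe sets, such a window could hardly occur. For the same reason, 0 called among 10 neighbours says little about the stretch. The tropinone reductase TRI and AT2G29340 are adjacent in the RefSeq annotation, a pair noticed after their values were seen. The 10 measured neighbours of TRI ranged from -0.18 to 1.15, with AT2G29340 at the upper end and AT2G29452, the fifth measured gene on that side, at 0.89.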

How the data were processed

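The authors deposited log2 expression values per probe set, made with RMA per the submitters' processing notes; the labels' protocols describe biotin-labelled sense-strand targets. The sources used here name no software version, probe set definition or build. The values (0.381 to 14.0) were used as deposited, with no filter on dim probe sets; 0 pairs of the 18 arrays were identical. Of 38408 rows, 16722 carry 1 gene, 759 several and the rest none in the platform annotation; 16574 were matched through Entrez IDs to the RefSeq assembly TAIR10.1, used for names and gene order.

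Groups come from sample titles. limma 3.58.1 in R 4.3.3 (lmFit, eBayes) fitted 6 group means to 18 arrays with 12 residual degrees of freedom. P-values are two-sided, adjusted by Benjamini-Hochberg over the 16722 probe sets; called means an adjusted p below 0.05. An exact permutation test of 3 against 3 arrays cannot go below 0.1. On simulated data for puchi-2 against rlk7-3 over 16722 probe sets, 94 of 100 changes of 1 log2 unit and 50 of 100 of 0.5 were recovered, with 4 false calls. Those data held 100 changes of each size, far more than the 7 called here, and many true changes ease the adjusted threshold. The recovered shares are therefore not the power of the real comparison.

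Named genes are PUCHI, RLK7, LBD16, QQS and ZCW7; up to 15 non-overlapping differences each way, called ones first; up to 4 called and 2 other members per list; and up to 6 called differences each way for the mean of both mutants. The comparison, the genes and the lists were chosen with earlier results of these data known, and some list patterns were corrected after the files were read. A further gene, TRI, was followed along the chromosome after its values were seen. Alternatives covered scaling, variance prior, weights, replicate block, filters, rows, arrays fitted and left-out arrays.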

Additional observations from a re-analysis of the deposited data

Results flagged for a closer look

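Flagged here are named genes whose difference between puchi-2 and rlk7-3 was itself different with TOLS2 and without it, by limma's test of that change. For AT4G08780, a class III peroxidase, the change was 4.34 on the log2 scale (limma adjusted p = 6.59e-05): puchi-2 minus rlk7-3 was 3.47 on TOLS2 arrays and -0.87 on control arrays, with all 3 puchi-2 arrays above the rlk7-3 arrays in the first and below in the second. For AT2G18150, of the same family, the change was 1.93 (5.78e-05), made of 1.20 with TOLS2 and -0.73 without. For AT1G36150 the change was -0.74 (0.0157), made of -0.16 with TOLS2 and 0.58 without. For CHX16 it was -0.77 (0.0242), made of -0.65 with TOLS2 and 0.12 without.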

How the results depend on the processing

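The count of 7 called between puchi-2 and rlk7-3 control arrays was 3 among brighter probe sets (0 higher, 3 lower) and 12 over all rows. It was 1 with only the control arrays, 1 with only the 6 arrays compared and 1 when replicate 1 of every group was left out. At an adjusted p below 0.01 it was 2, and leaving out 1 array gave 1 to 4. With the number as a replicate block it was 4, all 4 also called without it (QQS, AT5G52070, AT1G36150 and AT3G06435), while PUCHI (limma adjusted p = 0.0648), AT5G13600 (0.0865) and AT2G18150 (0.105) were not. Deviations of same-numbered puchi-2 and rlk7-3 control arrays correlated by 0.052 to 0.069, none over 0.1, so the numbers were not taken as pairs there; over all 6 groups 21 of 45 same-number correlations were over 0.1 (-0.061 to 0.345). Each puchi-2 array correlated best with the rlk7-3 array of its number, a hint from the data and not from the design. QQS is a dim probe set that the brightness filter removes, and was called in each of the 17 other alternatives it entered (adjusted p up to 0.0127). The filter also removes PUCHI, AT1G36150 and AT5G13600, so all 4 higher calls rest on dimmer probe sets. For puchi-2 against wild type the count of 3 was 1 (brighter), 8 (all rows), 1 (6 arrays) and 1 (without replicate 1 arrays), and 2 to 3 with 1 array left out. For rlk7-3 against wild type the count of 8 was 13 with an intensity trend and robust prior (4 higher, 9 lower), 17 with the replicate block (5 and 12), 18 (brighter, 5 and 13), 15 (all rows), 2 (6 arrays), 1 (without replicate 1 arrays) and 4 (adjusted p below 0.01), and 3 to 6 with 1 array left out. For the mean of both mutants the count of 9 was 14 (trend, 5 higher and 9 lower), 17 (array weights, 5 and 12), 14 (brighter, 4 and 10), 3 (adjusted p below 0.01) and 1 to 8 with 1 array left out; without replicate 1 arrays limma called 0, with 1201 at an unadjusted p below 0.05. On TOLS2 arrays the count of 444 was 697 with the replicate block, 672 (brighter), 740 (all rows), 56 (6 arrays), 212 (without replicate 1 arrays), 171 (adjusted p below 0.01) and 259 to 346 with 1 array left out. For the change of the difference with TOLS2 the count of 47 was 81 (trend), 76 (array weights), 88 (all rows), 6 (without replicate 1 arrays), 18 (adjusted p below 0.01) and 25 to 52 with 1 array left out. None of the 7 genes called between the mutants on control arrays changed direction in the fits it entered; directions of single genes were not followed for the other comparisons; the causes of the moved counts were not tested, though fits on fewer arrays have fewer residual degrees of freedom. With 3 arrays a group the number of arrays limits the precision.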
